A study of Mus musculus with 8 samples.

Results

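The thioredoxin system and the peroxiredoxins were examined as 10 genes in macrophages sorted from mouse tumors: Txn1, Txn2, Txnrd1, Txnip, Srxn1, Prdx1, Prdx2, Prdx3, Prdx5 and Prdx6. They were taken by gene name from a table of 35275 genes. All 10 were present once, and all 10 were among the 11019 genes tested, those with a mean of at least 1 FPKM (fragments assigned to a gene, scaled by its length and by the library's total). The study placed 100000 MC38 cells, a mouse colon adenocarcinoma line, under the skin of female C57BL/6J mice of 6 to 8 weeks and took the tumors at day 21. CD11b+ F4/80+ Ly6G- Ly6C- cells were sorted from each tumor and their RNA was sequenced. The 4 mice labelled Atg5 WT carried floxed Atg5 alleles (Atg5flox/flox) and no Cre, and the 4 labelled Atg5 KO carried the same floxed alleles with LysMcre. LysMcre is a Cre recombinase in the Lyz2 gene, active in macrophages and also in neutrophils and some monocytes, so the tumor cells and the other host cells kept Atg5. No group carried the Cre without floxed alleles, so Cre and deletion cannot be told apart. Below, libraries are called WT-labelled and KO-labelled. The labels number the mice 1 to 4 in each group and name a separate mouse for each library.

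Thioredoxins are small proteins that reduce disulfide bonds in other proteins. Txn1 works in the cytosol and nucleus and Txn2 in mitochondria, thioredoxin reductases such as Txnrd1 restore them with electrons from NADPH, and Txnip binds reduced thioredoxin and restrains it. Peroxiredoxins remove hydrogen peroxide and organic peroxides with a reactive cysteine, and most are recharged by thioredoxin. When peroxide oxidizes that cysteine too far, sulfiredoxin, the product of Srxn1, restores it in Prdx1 to Prdx4. The transcription factor NRF2 drives several of these genes through antioxidant response elements in their promoters, and p62, a cargo protein removed by autophagy, can hold NRF2's inhibitor KEAP1. In macrophages these enzymes meet the peroxide made during phagocytosis.

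The promoters of 3 members are printed because their genes include the member with the clearest separation between the groups (Srxn1), the main cytosolic peroxiredoxin (Prdx1) and the reductase (Txnrd1). Sequences are RefSeq's on GRCm38.p6, the assembly of mm10, from 250 bases before to 50 bases after the start of the gene, and are read 5′ to 3′ on the gene's strand, which is the plus strand for all 3. Capitals mark matches on either strand to TGACNNNGC or TGAGNNNGC, the core letters of the antioxidant response element.
Srxn1, chr2:152105274-152105573: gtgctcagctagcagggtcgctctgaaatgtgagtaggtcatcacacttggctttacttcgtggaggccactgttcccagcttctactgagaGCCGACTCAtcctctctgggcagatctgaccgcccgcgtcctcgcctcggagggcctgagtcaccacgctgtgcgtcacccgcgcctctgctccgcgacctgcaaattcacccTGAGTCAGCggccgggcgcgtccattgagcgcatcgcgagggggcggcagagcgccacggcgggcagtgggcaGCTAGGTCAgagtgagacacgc
Prdx1, chr4:116685349-116685648: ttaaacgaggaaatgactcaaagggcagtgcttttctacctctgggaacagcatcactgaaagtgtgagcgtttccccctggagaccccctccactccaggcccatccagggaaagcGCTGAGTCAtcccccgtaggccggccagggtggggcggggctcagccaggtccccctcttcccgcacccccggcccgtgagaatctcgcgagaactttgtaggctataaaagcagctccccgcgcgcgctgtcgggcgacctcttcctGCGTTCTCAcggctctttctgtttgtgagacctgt
Txnrd1, chr10:82858956-82859255: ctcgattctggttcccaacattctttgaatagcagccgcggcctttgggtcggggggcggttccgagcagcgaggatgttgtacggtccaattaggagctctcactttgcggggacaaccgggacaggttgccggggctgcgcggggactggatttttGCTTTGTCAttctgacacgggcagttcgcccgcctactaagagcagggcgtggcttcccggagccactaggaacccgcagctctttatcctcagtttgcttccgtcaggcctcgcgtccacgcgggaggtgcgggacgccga
Srxn1 held 3 matches, at bases 93 to 101, 206 to 214 and 279 to 287 of the printed run. The match of the middle one, TGAGTCAGC, also contains the AP-1 letters TGACTCA on the opposite strand. Prdx1 held 2 matches, at bases 118 to 126 and 266 to 274, and the first reads TGACTCAGC on the opposite strand and again contains the AP-1 letters. Txnrd1 held 1, at bases 159 to 167. Promoter sequences were matched for 9 of the 10 members, 11 promoters in all, and 4 of the 11 promoters held a match, the one not printed being that of Txn2. Txnrd1 has 3 promoters in the table, and the 2 not printed held none. Of all 32851 promoters of this length, 27.8% held a match to one form or the other, 12.4% to TGACNNNGC and 17.6% to TGAGNNNGC, and 5.20% held TGACTCA. These matches describe the letters in the windows and were not measured as binding sites. Prdx6 was not matched.

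The libraries held between 14799546 and 25555195 fragments assigned to genes. Each value of a member rested on between 498 and 13305 fragments, so counting error alone reached at most 4.48% of a value, that of Prdx3. Atg5 itself, the targeted gene, had the higher values under the Atg5 KO label: its FPKM was 6.73, 3.50, 3.93 and 3.91 in WT-labelled mice 1 to 4 and 16.2, 13.8, 12.8 and 13.3 in KO-labelled mice 1 to 4. The FPKM of the whole gene does not check the floxed part, and every direction below rests on the label. Lyz2, which carries the Cre, ranged from 4436 to 6268 FPKM in WT-labelled libraries and from 2808 to 3467 in KO-labelled ones. On the first principal component (58.9% of the variance) both mouse 1 libraries lay far from the other 6, and on the second (18.3%) KO-labelled mouse 2 did.

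The sorted cells carried the macrophage markers, all 12 of 12 being above the threshold for testing. Some markers of other cells stood as high, Fn1 and S100a4 above Csf1r (379 and 373 FPKM in the 2 groups), and others were near 0. Of 10 neutrophil markers, Cxcr2, Ly6g, Mpo, Elane and Camp were under 1 FPKM in all 8 libraries, and the list summed to 37.1 to 62.7 FPKM in WT-labelled libraries and 45.5 to 74.0 in KO-labelled ones, mostly Retnlg. Of the 5 neutrophil markers tested, 4 had positive differences, with a median of 0.75, and S100a8 (2.58 and 6.08 FPKM on average) and Mmp8 (2.57 and 5.55) had an unadjusted limma p under 0.05. Of 12 lymphocyte markers, 6 stayed under 1 FPKM, with sums of 5.85 to 11.7 and 4.13 to 7.32. The 2 lymphocyte markers tested had negative differences. Of these, Cd2 (3.04 and 1.51 FPKM on average) had an unadjusted limma p of 0.00138, with groups that did not overlap. Of 8 epithelial markers, 6 stayed under 1 FPKM and Krt20 was at 0 in all 8, with sums of 43.5 to 74.6 and 36.1 to 70.3. Most of each sum was Cdh1 (42.6 to 71.9 and 34.7 to 68.2 FPKM), and Epcam reached at most 1.82. The 12 macrophage markers summed to 11917 to 14388 FPKM in WT-labelled libraries and 9564 to 13144 in KO-labelled ones. At an unadjusted limma p under 0.05, C1qa (2102 and 1590 FPKM) and C1qb (1949 and 1547) were lower and Itgam (254 and 323) was higher, the last with groups that did not overlap. The 15 fibroblast markers, of which Fn1 is also made by macrophages, summed to 916 to 1336 and 1059 to 1525, mostly Fn1. The 10 tested all had positive differences, with a median of 0.52, and Col1a1 (6.21 and 8.75 FPKM) had an unadjusted limma p under 0.05. In both mouse 1 libraries 9 of the 15 exceeded all 6 others, as did 29.8% of all tested genes. Col3a1 had 74.1 and 149 FPKM there against 6.12 to 15.2 elsewhere, and Sparc 79.2 and 133 against 10.1 to 22.5. The 11 monocyte markers, Fn1 again among them, summed to 1518 to 1925 and 1659 to 2195. Of the 10 monocyte markers tested, 9 had positive differences, with a median of 0.31, and F13a1 (58.7 and 94.0 FPKM) had an unadjusted limma p under 0.05. The 8 dendritic markers summed to 29.3 to 54.4 and 21.4 to 41.7 FPKM. Among the 5 dendritic markers tested, 4 had negative differences, with a median of -0.25. Batf3 was lower, with a difference of -0.56, an unadjusted limma p of 0.00584 and overlapping groups. The 6 endothelial markers summed to 22.1 to 35.9 and 23.6 to 33.7 FPKM, and the 5 erythroid to 0.025 to 1.78 and 0.139 to 4.14. For comparison, 58.5% of all tested genes had positive differences, with a median over all of 0.03. An unadjusted limma p under 0.05 was met by 1.2% with higher and 0.826% with lower values. Groups did not overlap for 1.15% with higher and 0.59% with lower values. The 12 genes of dissociation stress summed to 3301 to 4739 FPKM in WT-labelled and 3350.3 to 4576 in KO-labelled libraries. The part of these cells and states in the results below was not tested, and fewer cells of a type and less RNA per cell cannot be told apart in bulk RNA.

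The level of the members spanned a wide range in these macrophages. Prdx5 and Txn1 were the most abundant, with means over the 8 libraries of 334 and 241 FPKM. Prdx1 followed at 135, Txnrd1 at 106, Prdx6 at 88.7 and Prdx2 at 83.3 FPKM. Txnip stood at 42.7, Txn2 at 34.6, Prdx3 at 26.3 and Srxn1 at 25.5 FPKM. The order is of levels per length of gene. In it 3 steps were clean in all 8 libraries with ranges that did not meet: Txn1 above Prdx1, Prdx2 above Txnip, and Txnip above Txn2. Prdx5 exceeded Txn1 in 6 of 8 libraries, the exceptions being mouse 1 of both groups. Prdx6 exceeded Prdx2 in 4 of 8, namely the 4 KO-labelled libraries, and Prdx3 exceeded Srxn1 in 6 of 8. Txn2 exceeded Prdx3 in 7 of 8, with 34.6 ± 3.27 and 26.3 ± 3.76 FPKM (SD, n = 8). Prdx6 and Prdx2, and Prdx3 and Srxn1, had means closer together than their SDs. The cytosolic thioredoxin transcript was 5.46 to 9.52 times as abundant as the mitochondrial one, library by library.

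**Figure D1:**
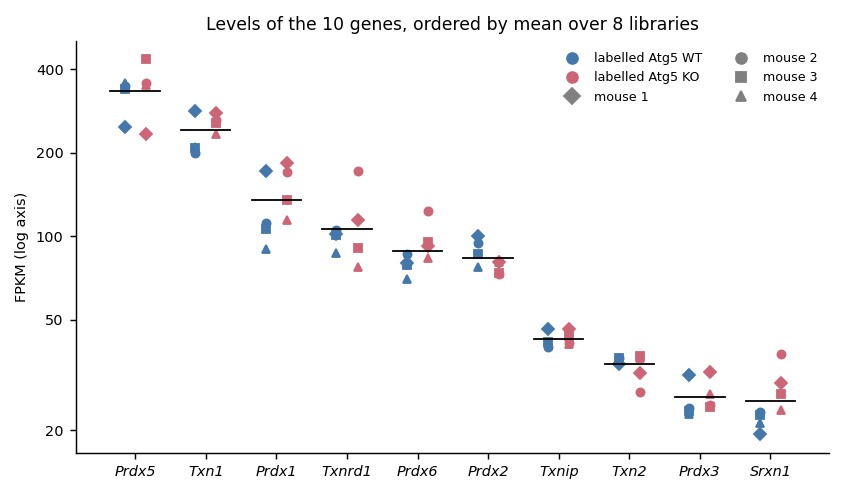
FPKM of the 10 genes on a log axis, ordered by the mean over 8 libraries (black line). Each point is 1 library, blue for Atg5 WT and red for labelled Atg5 KO, with the symbol giving the mouse number; Prdx5 and Txn1 lead and Prdx3 and Srxn1 share the bottom of the range.

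The design asks how these genes respond to an Atg5 deletion in host myeloid cells. No member passed limma's test at an adjusted p of 0.05, and neither did any of the 11019 genes (percent called, 0). An unadjusted limma p under 0.05 was met by 223 genes, and voom with the mouse number as a block called 8 genes at the adjusted threshold, none a member. Differences on the log2(FPKM + 1) scale were positive for 8 of 10 members, with a median of 0.11, while 58.5% of all tested genes were positive, with a median of 0.03. At an unadjusted limma p under 0.05 there were 2 members, Srxn1 and Prdx6, both with higher values in KO-labelled libraries, where 1.2% of all tested genes met that rule in that direction and 2.02% in either. No member met it with lower values, against 0.826% of all genes. The labels do not pair mice across the groups, and pairing by number was taken from correlations in these data. With the mouse number as a replicate block, Srxn1, Prdx1 and Prdx6 met the unadjusted rule with higher values. Of all genes, 5.19% did in that direction, 3.62% in the other and 8.81% in either. That fit called 0.00908% of all genes at an adjusted p of 0.05, which was Atg5 alone, and the smallest adjusted p among members was 0.473. Among mice 2 to 4 alone, Txn1 and Prdx1 met the unadjusted rule, both with higher values, against 3.43% of all genes in that direction, 2.18% in the other and 5.61% in either, and 0.00908% passed the adjusted threshold. In that subset, looked at because mouse 1 stood apart, every KO-labelled value lay above every WT-labelled one for 4 members (Txn1, Srxn1, Prdx1 and Prdx3) and for 10.3% of all tested genes, and below for no member and 4.43%. The adjusted limma p of every member was 0.999 with all mice and no block.

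**Figure D2:**
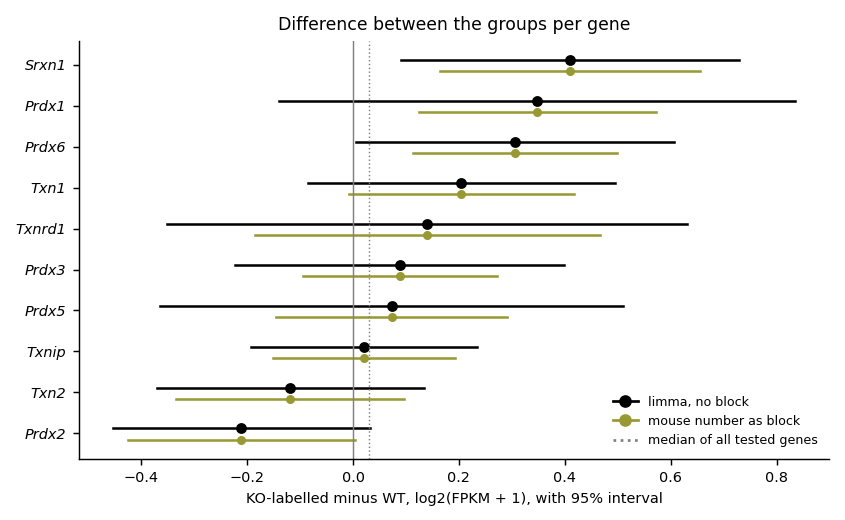
Difference between the libraries labelled Atg5 KO and Atg5 WT for each gene on the log2(FPKM + 1) scale, with the 95% interval from limma, without (black) and with (olive) the mouse number as a block. The dotted line is the median of all tested genes, 0.03; without the block the intervals of Srxn1 and Prdx6 lie above 0.

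Sulfiredoxin had the clearest separation. Srxn1 (ENSMUSG00000032802, chromosome 2, 152105516 to 152111376, plus strand, mm10) had 19.4, 23.2, 22.7 and 21.3 FPKM in WT-labelled mice 1 to 4. KO-labelled mice 1 to 4 had 29.5, 37.5, 26.9 and 23.7 FPKM. Every KO-labelled library lay above every WT-labelled library, which was so for 1.15% of all tested genes, with 0.59% apart in the other direction and 1.74% in either, and the margin was narrow, the lowest KO-labelled value being 23.7 and the highest WT-labelled value 23.2. The means were 21.6 ± 1.70 and 29.4 ± 5.90 (SD, n = 4), 1.36 times as high in the KO-labelled group. The log2 difference was 0.41 ± 0.14 (SE), with a 95% interval of 0.09 to 0.73 and an unadjusted limma p of 0.0171, which ranked 66th of the 11019 genes. An exact two-sided permutation test gave p = 0.0286, its floor for 4 against 4. KO-labelled mouse 2 was highest, and without it the difference was 0.29, still under an unadjusted p of 0.05 in limma. The spread was also wider in the KO-labelled group, where the difference within same-numbered pairs ran from 0.15 in mouse 4 to 0.67 in mouse 2.

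Prdx1 and Prdx6 had higher values in the KO-labelled library of all 4 same-numbered pairs, but their groups overlapped. Prdx1 (ENSMUSG00000028691, chromosome 4, 116685544 to 116700822, plus strand), the major cytosolic peroxiredoxin and a substrate of sulfiredoxin, had 173, 112, 106 and 89.7 FPKM in WT-labelled mice 1 to 4 and 184, 171, 135 and 114 in KO-labelled mice 1 to 4. The WT-labelled mouse 1 library was as high as KO-labelled mouse 2, while the other WT-labelled libraries lay below all 4 KO-labelled ones. The means were 120.0 ± 36.3 and 151 ± 31.9 FPKM (SD, n = 4). The log2 difference was 0.35 ± 0.22 (SE, limma, 95% interval -0.14 to 0.83, unadjusted p = 0.141, exact permutation p = 0.200). With the mouse number as a block its error was 0.10 and the unadjusted limma p 0.00697. That pairing was taken from these data and rests mostly on mouse 1, without which the correlations were 0.297, -0.134 and 0.205. Among mice 2 to 4 alone, where the values were 89.7 to 112 and 114 to 171 (10.3% of all tested genes separated this way), the difference was 0.43 (limma, adjusted p = 0.776). Without WT-labelled replicate 1 it was 0.54 and without WT-labelled replicate 4 it was 0.22.

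Prdx6 (ENSMUSG00000026701, chromosome 1, 161240112 to 161251219, minus strand) encodes the 1-Cys peroxiredoxin, which relies on glutathione in place of thioredoxin and also has phospholipase activity. Its FPKM was 80.3, 86.7, 78.7 and 70.1 in WT-labelled mice 1 to 4 and 92.0, 123, 95.3 and 83.6 in KO-labelled mice 1 to 4. Only KO-labelled mouse 4 reached into the WT-labelled range. The means were 78.9 ± 6.83 and 98.5 ± 17.2 FPKM (SD, n = 4), and the log2 difference was 0.31 ± 0.13 (SE, limma, 95% interval 0.01 to 0.61, unadjusted p = 0.0468). The exact permutation p was 0.0571. KO-labelled mouse 2 was again the highest, and without it the difference was 0.19 and no longer under an unadjusted p of 0.05 in limma. Being higher in all 4 pairs, as Srxn1, Prdx1, Prdx3 and Prdx6 were, held for 13.2% of all tested genes, and being lower in all 4, as no member was, for 6.52%.

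Prdx2, the other abundant cytosolic 2-Cys peroxiredoxin, had lower values in 3 of 4 pairs. Prdx2 (ENSMUSG00000005161, chromosome 8, 84969587 to 84974834, plus strand) had 99.9, 94.7, 86.4 and 77.4 FPKM in WT-labelled mice 1 to 4 and 80.7, 72.9, 73.5 and 81.0 in KO-labelled mice 1 to 4. The lowest WT-labelled library overlapped the KO-labelled ones, and mouse 4 went the other way. The log2 difference was -0.21 ± 0.11 (SE, limma, 95% interval -0.45 to 0.03, unadjusted p = 0.0812, exact permutation p = 0.0857). The first 181 bases of the gene overlap Rnaseh2a on the opposite strand, at 9.43 to 12.3 FPKM, and whether the counting used strand is not known here, so reads from the overlap are uncertain. The ratio of Prdx1 to Prdx2 within a library, which does not depend on the scaling between libraries, was 1.73, 1.18, 1.23 and 1.16 in WT-labelled mice 1 to 4 and 2.27, 2.34, 1.84 and 1.41 in KO-labelled mice 1 to 4. It was higher in the KO-labelled library of all 4 pairs, with WT-labelled mouse 1 above KO-labelled mouse 4. This ratio was chosen after the values were seen and has no test.

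The mitochondrial and remaining peroxiredoxins showed differences smaller than the spread between replicates. Prdx3 (ENSMUSG00000024997, chromosome 19, 60864051 to 60874556, minus strand), the peroxiredoxin of mitochondria, had 31.6, 23.9, 23.5 and 22.8 FPKM in WT-labelled mice 1 to 4 and 32.4, 24.6, 24.3 and 27.0 in KO-labelled mice 1 to 4. The 2 mouse 1 libraries were its highest, and the log2 difference was 0.09 ± 0.14 (SE, limma, 95% interval -0.22 to 0.40). Prdx5 (ENSMUSG00000024953, chromosome 19, 6906697 to 6910106, minus strand), the atypical 2-Cys peroxiredoxin of mitochondria, peroxisomes and cytosol, had 248, 349.5, 339 and 357 FPKM in WT-labelled mice 1 to 4 and 235, 358, 435 and 352 in KO-labelled mice 1 to 4. Here the mouse 1 libraries were the lowest, KO-labelled mouse 3 the highest, and the log2 difference was 0.07 ± 0.19 (SE, limma, 95% interval -0.36 to 0.51). Its sign turned without WT-labelled replicate 1 (-0.05) or KO-labelled replicate 3 (-0.05). Prdx5 shares 409 bases with Trmt112 on the opposite strand, which had 35.3 to 40.6 FPKM. Prdx4, the peroxiredoxin of the endoplasmic reticulum and not among the 10, had 42.5 ± 10.9 FPKM in WT-labelled libraries and 39.5 ± 7.94 in KO-labelled ones (SD, n = 4). The FPKM of the 5 peroxiredoxin members summed to 637 ± 20.9 and 699 ± 68.5 (SD, n = 4), with overlapping groups.

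**Figure D3:**
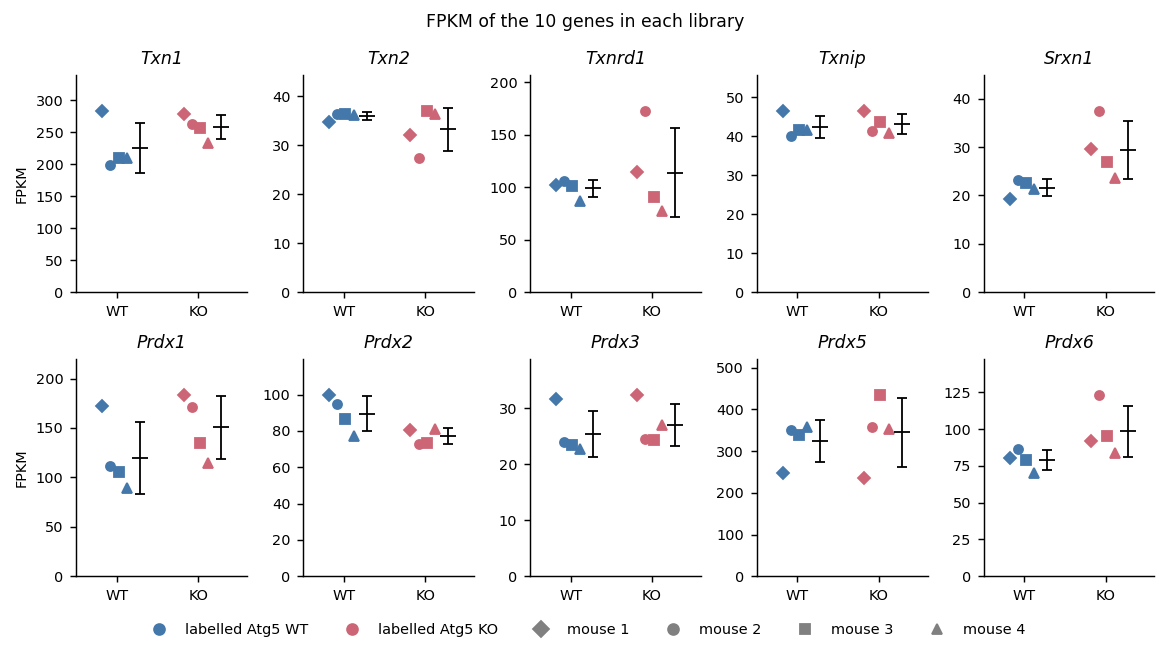
FPKM of each gene in each library, with the axis starting at 0. Points are single libraries with the symbol giving the mouse number, and the black bar is the mean ± SD of 4 libraries; the groups do not meet for Srxn1, from 19.4 to 23.2 against 23.7 to 37.5, and they overlap for the other 9 genes.

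The values of both thioredoxins overlapped between the groups. Txn1 (ENSMUSG00000028367, chromosome 4, 57943373 to 57956411, minus strand) had 283, 199, 209 and 209.6 FPKM in WT-labelled mice 1 to 4 and 278, 262, 257 and 233 in KO-labelled mice 1 to 4. The mouse 1 libraries were close to each other, while among mice 2 to 4 every KO-labelled value was above every WT-labelled value, as for 10.3% of all tested genes. The log2 difference was 0.20 ± 0.13 (SE, limma, 95% interval -0.09 to 0.49, unadjusted p = 0.146, exact permutation p = 0.143). Among mice 2 to 4 it was 0.28 (limma, adjusted p = 0.776), and 0.32 when only WT-labelled replicate 1 was left out. Txn2 (ENSMUSG00000005354, chromosome 15, 77915047 to 77929006, minus strand) had 34.7, 36.5, 36.4 and 36.2 FPKM in WT-labelled mice 1 to 4 and 32.1, 27.5, 37.1 and 36.4 in KO-labelled mice 1 to 4. Mice 3 and 4 were alike in both groups and the KO-labelled mice 1 and 2 were lower. Its log2 difference was -0.12 ± 0.11 (SE, limma, 95% interval -0.37 to 0.13, exact permutation p = 0.371).

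Thioredoxin reductase 1 was highest in KO-labelled mouse 2. Txnrd1 (ENSMUSG00000020250, chromosome 10, 82859206 to 82897724, plus strand) had 102, 105, 101 and 86.8 FPKM in WT-labelled mice 1 to 4 and 114, 173, 91.0 and 77.8 in KO-labelled mice 1 to 4. That library stood well above the rest, KO-labelled mouse 1 also exceeded every WT-labelled value, and KO-labelled mouse 4 was the lowest of all. The log2 difference was 0.14 ± 0.22 (SE, limma, 95% interval -0.35 to 0.63, exact permutation p = 0.686), and without KO-labelled replicate 2 it was -0.08. The other reductase genes of the table, Txnrd2 of mitochondria and Txnrd3, had 8.22 ± 0.724 and 1.97 ± 0.170 FPKM in WT-labelled libraries and 8.81 ± 1.44 and 2.38 ± 0.249 in KO-labelled ones (SD, n = 4).

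Txnip, the inhibitor, was the steadiest member, with a coefficient of variation of 5.89% over all 8 libraries. Txnip (ENSMUSG00000038393, chromosome 3, 96557957 to 96561883, plus strand) had 46.5, 40.0, 41.6 and 41.7 FPKM in WT-labelled mice 1 to 4 and 46.4, 41.2, 43.7 and 40.8 in KO-labelled mice 1 to 4. The mouse 1 libraries were the highest in both groups and the groups overlapped throughout. The log2 difference was 0.02 ± 0.10 (SE, limma, 95% interval -0.19 to 0.23), and its sign turned under median-of-ratios scaling (-0.0095). Gm15441 overlaps the whole of Txnip on the opposite strand but had at most 0.541 FPKM.

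**Figure D4:**
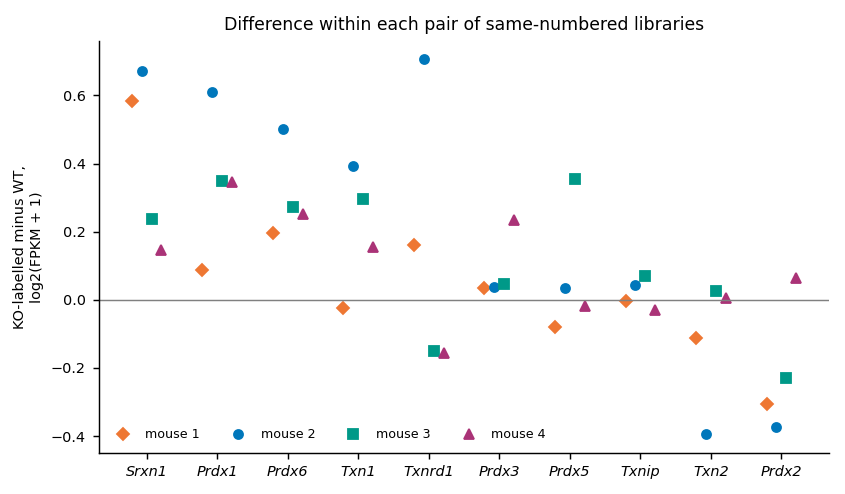
Difference between the KO-labelled and the WT-labelled library of the same mouse number, log2(FPKM + 1), for each gene. Each symbol is 1 pair; Srxn1, Prdx1, Prdx6 and Prdx3 are above 0 in all 4 pairs, and mouse 2 gives the highest or lowest difference for 7 genes.

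Several members, like many of all tested genes, were shifted in the mouse 1 libraries of both groups. Txn1, Txnip, Prdx1 and Prdx3 exceeded all 6 other libraries in mouse 1 of each group, which was so for 29.8% of all tested genes, and Prdx5 was lower in both, as were 14.7%. Txn1 had 283 and 278 FPKM there against 228 ± 26.6 (SD, n = 6) elsewhere, Prdx3 had 31.6 and 32.4 against 24.3 ± 1.44, and Prdx5 had 248 and 235 against 365 ± 34.8. The fibroblast matrix genes named above were high in the same libraries, and Mmp2, another of that list, had 37.9 and 63.7 FPKM in mouse 1 against 4.48 to 15.3 elsewhere; their part in this shift was not tested. Prdx1 had 173 and 184 FPKM in mouse 1 against 121 ± 28.4 (SD, n = 6) elsewhere. For Txn1, Txnip, Prdx1, Prdx3 and Prdx5 the step between mouse 1 and the rest was larger than the step between the groups. Srxn1, Txnrd1 and Prdx6 peaked in KO-labelled mouse 2, and Txn2 and Prdx2 were lowest there. It was the highest library for 12.8% and the lowest for 18.9% of all tested genes. Members with the largest spread were Prdx1, Txnrd1 and Prdx5, with SDs of 0.38, 0.34 and 0.29 on the log2(FPKM + 1) scale over the 8 libraries.

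The genes whose profiles over the 8 libraries lay closest to these 3 were found by the SD of the difference of centred log2(FPKM + 1) values among 10060 named genes. For Prdx1 they were Cav2, Zfp943 and Pyhin1, with SDs of 0.07, 0.08 and 0.09. For Txnrd1 they were Dusp16, Ddx6 and Sde2, with 0.04, 0.08 and 0.08. Dusp16, a phosphatase of MAP kinases, followed Txnrd1 in all 8 libraries, with 36.4 FPKM in KO-labelled mouse 2 against 16.5 to 23.8 in the other 7. For Prdx5 they were Scarf1, Blvrb and Hk3, each at 0.09. Blvrb, biliverdin reductase B, had 52.0 and 57.1 FPKM in mouse 1 (WT-labelled, then KO-labelled) and 73.5 to 96.5 elsewhere. All profiles come from the same 8 libraries and share their depths.

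Of 39 other genes of the thioredoxin pathway, among them glutaredoxins, thioredoxin-like proteins, methionine sulfoxide reductases and arrestin-like relatives of Txnip, 37 were tested and none passed an adjusted p of 0.05 in limma. The median log2 difference was 0.05, and 21 were positive. At an unadjusted p under 0.05, 1 was higher and 1 lower, against 1.2% and 0.826% of all tested genes. Arrdc2 had 5.52, 6.99, 6.30 and 7.43 FPKM in WT-labelled mice 1 to 4 and 4.25, 4.65, 5.46 and 5.64 in KO-labelled mice 1 to 4 (unadjusted limma p = 0.0247, exact permutation p = 0.0571). Arrdc3 had 29.9, 28.0, 23.5 and 19.9 in WT-labelled libraries and 33.6, 32.2, 28.4 and 31.9 in KO-labelled ones (unadjusted limma p = 0.0420, exact permutation p = 0.0571). These arrestin-domain genes, both relatives of Txnip, lay on opposite sides, Arrdc2 lower and Arrdc3 higher in all 4 pairs. Tmx4, a thioredoxin-like protein of the endoplasmic reticulum membrane, had 12.9 ± 2.49 and 16.4 ± 2.56 FPKM, and Glrx, cytosolic glutaredoxin, had 69.2 ± 6.83 and 88.7 ± 23.5 (SD, n = 4).

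Of 9 other enzymes that remove peroxide or superoxide, 7 were tested, none had an unadjusted limma p under 0.05, and 4 were positive. Gpx1, the abundant cytosolic glutathione peroxidase, had 622, 604, 599 and 625 FPKM in WT-labelled mice 1 to 4 and 507, 456, 606 and 608 in KO-labelled mice 1 to 4, lower in the KO-labelled library of 3 of 4 pairs and most so in mice 1 and 2. Gpx4, which reduces lipid peroxides, had 134 ± 4.96 and 122 ± 13.2 FPKM (SD, n = 4). Sod2, mitochondrial superoxide dismutase, had 36.7 ± 2.99 and 43.4 ± 9.59, and Gpx3, a secreted peroxidase, had 3.02 ± 0.299 and 3.65 ± 0.466.

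The RNA of NRF2 itself and its partners overlapped between the groups. All 7 genes of that list were tested, all 7 had negative differences with a median of -0.09, and none had an unadjusted limma p under 0.05. Nfe2l2, which encodes NRF2, had 174 ± 41.6 and 167 ± 47.1 FPKM, Keap1 had 12.1 ± 2.32 and 11.9 ± 2.97, and Sqstm1, which encodes p62, had 204 ± 14.7 and 195 ± 39.1 (SD, n = 4). Bach1, a repressor of the same elements, ran from 37.4 to 61.8 FPKM in WT-labelled libraries and from 28.1 to 75.5 in KO-labelled ones, with KO-labelled mouse 2 highest. Mafk and Maff, small Maf proteins that bind these elements, had 32.1 ± 4.80 and 75.8 ± 10.96 FPKM in WT-labelled libraries and 27.0 ± 5.94 and 68.4 ± 16.3 in KO-labelled ones (SD, n = 4). Of 19 other NRF2 targets, 16 were tested and 12 were positive, with a median of 0.15. Over all tested genes, 58.5% were positive, with a median of 0.03. At an unadjusted limma p under 0.05, 3 of the targets were higher and none lower, against 1.2% and 0.826% of all tested genes. Gclm, the regulatory partner of Gclc in glutathione synthesis, had 5.25, 4.96, 5.27 and 4.997 FPKM in WT-labelled mice 1 to 4 and 7.90, 7.99, 6.37 and 6.14 in KO-labelled mice 1 to 4. Like Srxn1 its groups did not overlap, as for 1.15% of all tested genes in that direction. Gsr, glutathione reductase, and Abcc1, an exporter of glutathione conjugates, had unadjusted limma p values of 0.0152 and 0.0300, with overlapping groups. Osgin1 went the other way in all 4 pairs, with 3.24 ± 0.566 and 2.54 ± 0.512 FPKM (SD, n = 4). Nqo1, a common readout of NRF2, averaged under 1 FPKM and was not tested.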

How the data were processed

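RNA was sequenced from 8 sorted macrophage samples. The authors deposited 1 table of FPKM values with gene names, lengths and mm10 coordinates. CASAVA, STAR and mm10 appear in the submitters' processing notes, without roles. Not given in the sources used here are the counting tool, its strand setting and the annotation. Whole fragments were recovered from FPKM times gene length: 100% of values came out whole to within 0.01.

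Values were tested two-sided as log2(FPKM + 1) with limma 3.58.1 (R 4.3.3) and a trended prior variance. The 11019 genes tested averaged 1 FPKM or more, and p was adjusted by Benjamini-Hochberg over all of them. This scale understates the change of low genes. Exact permutation p values run over all 70 assignments of 4 against 4. The test was also run on simulated counts with independent libraries. These lack the shift shared by the mouse 1 libraries, so that check does not cover it.

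Same-numbered libraries deviated together from their group means, with correlations over genes of 0.841, 0.208, 0.458 and 0.471 for mice 1 to 4, and a second fit took mouse number as a block. The pairing comes from this check, not from the labels, and leaving out mouse 1 gave correlations of 0.297, -0.134 and 0.205. Sample p-values measure the spread between mice as labelled.

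Named genes were the 10 members, Atg5 and Lyz2, pathway genes at an unadjusted p under 0.05 or else the 4 with the smallest p per list, and the 3 genes closest to each of the 3 most variable members. Txnrd2, Txnrd3, Prdx4, Nfe2l2, Keap1 and Nqo1 are given outside that rule for their roles, after their values were seen. The members and lists were chosen with earlier results of these data known. Alternatives changed the scaling, pseudocount, filter, variance model and replicates used. Emr1 stood for Adgre1. Promoters came from RefSeq, and proteins were not used here.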

Additional observations from a re-analysis of the deposited data

Results flagged for a closer look

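In a set of 20 groups of 4 libraries (10 genes by 2 groups), 4 held a library far from the other 3, where chance gives about 1 in 20. All 4 were WT-labelled mouse 1. Its Txn1 was 283 FPKM against 199 to 209.6 in WT-labelled libraries mice 2 to 4. Its Prdx3 was 31.6 FPKM against 22.8 to 23.9. Its Prdx5 was 248 FPKM, below the 339 to 357 of the others. Its Txn2 was 34.7 FPKM, below a narrow range of 36.2 to 36.5. KO-labelled mouse 1 lay on the same side of its own group for Txn1 and Prdx3 as the highest and for Prdx5 as the lowest. The 4 genes come from the same library, so the flags are not independent.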

How the results depend on the processing

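No member passed an adjusted p of 0.05 in limma under any of the 20 alternatives, 2 of which (voom with the block, and mice 2 to 4 with the block) were chosen after seeing the data. The direction held in all 20 for 7 members. It turned for Txnip under median-of-ratios scaling (-0.0095) and without WT-labelled replicate 2 (-0.0070) or KO-labelled replicate 1 (-0.0156), for Txnrd1 with array weights (-0.10) and without KO-labelled replicate 2 (-0.0808), and for Prdx5 without WT-labelled replicate 1 (-0.05) or KO-labelled replicate 3 (-0.0491). Srxn1 ran from 0.24 to 0.50 and had an unadjusted p under 0.05 in 19 of 20, the exception being mice 2 to 4 only (0.0633). Prdx6 met that in 11 and Prdx1 in 6. Without single replicates the difference ran from -0.0808 to 0.30 for Txnrd1, from -0.0156 to 0.0640 for Txnip and from -0.0491 to 0.25 for Prdx5. The cause of these changes was not tested.

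The count of members at an unadjusted p under 0.05 was 2, and became 1 with quantile normalization or median-of-ratios scaling, 5 with array weights, 4 for mice 2 to 4 with the block, and 1 to 3 without single replicates. The replicate block gave 3 and changed no adjusted call of a member. Over all genes, 1 passed the adjusted threshold with quantile normalization, median-of-ratios scaling, array weights, the replicate block, and mice 2 to 4 with or without it, 8 with voom and the block, and 0 to 1 without single replicates. Genes at an unadjusted p under 0.05 numbered 223, and 540 with no filter, 137 with a filter at 5 FPKM, 971 with the replicate block, 1282 with array weights, 1121 with voom and the block, 618 and 710 for mice 2 to 4 without and with the block, and 109 to 833 without single replicates. Counting error reached at most 4.48% of a member's value.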

Other observations

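Ratios of members within libraries overlapped between the groups in each case below. Txn1 over Txn2, the cytosolic against the mitochondrial thioredoxin, was 8.15, 5.46, 5.75 and 5.78 in WT-labelled mice 1 to 4 and 8.68, 9.52, 6.93 and 6.42 in KO-labelled mice 1 to 4. It was higher in the KO-labelled library of all 4 pairs, with WT-labelled mouse 1 above KO-labelled mice 3 and 4. Txnip over Txn1, the inhibitor against its target, was 0.164, 0.201, 0.199 and 0.199 in WT-labelled libraries and 0.167, 0.157, 0.170 and 0.175 in KO-labelled ones, lower in 3 of 4 pairs. Srxn1 over Prdx1, the repair enzyme against a substrate, was 0.112, 0.208, 0.214 and 0.237 against 0.161, 0.219, 0.199 and 0.207, higher in 2 of 4 pairs. Txnrd1 over Txn1 was 0.361, 0.529, 0.484 and 0.414 against 0.411, 0.659, 0.354 and 0.333, also higher in 2 of 4 pairs. These ratios were chosen after the values were seen and have no test.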
